A study of Mus musculus with 8 samples.

Results

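Forkhead (FOX), GATA and SOX proteins are 3 families of DNA-binding transcription factors. Their genes were taken from the array by symbol, as Fox followed by a letter and a number, Gata and a number, or Sox and a number, without Foxo1, Foxo3 and Foxj1. This gave 63 of the 18069 named genes, of which 38 were Fox, 6 Gata and 19 Sox genes. A gene with several probes was represented by its brightest probe over the 8 arrays. All 63 platform symbols were still the current RefSeq symbols.

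FOX proteins bind DNA through a winged-helix domain, GATA proteins through zinc fingers that recognise the letters GATA, and SOX proteins through a high-mobility-group box that bends DNA. In the ovary, FOXL2 keeps granulosa cells, the cells around the oocyte, in their female state, and GATA4 and GATA6 drive steroid enzyme genes in granulosa, theca and luteal cells. SOX9 directs the testis fate in the embryonic gonad, and SOX7, SOX17 and SOX18 act in the endothelium of blood and lymph vessels.

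The mice were female heterozygous Lethal Yellow mice (LY, C57BL/6J Ay/a). All of them carried the Ay allele of agouti, which leads to obesity and insulin resistance, so no lean genotype entered the comparison. From 120 to 180 days of age, 4 mice received 0.1 mg of pioglitazone by daily gavage according to the labels (the paper's text gives a lower dose) and 4 received the DMSO vehicle, for 60 days. Ovarian RNA of each mouse was hybridised to its own 1-colour array, so that 4 arrays stood for each group, and the deposited intensities, in relative intensity units, have array medians near 1. A value of 0.2 is the limit of sensitivity in the methods.

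Arrays correlated with each other at 0.949 to 0.987 across probes. All 5 named granulosa, 4 oocyte and 3 theca markers were at 0.2 or more in every array. Of the endothelial markers Cdh5 was under 0.2 in every array, while Kdr had group means of 15.4 and 13.6 (vehicle, then pioglitazone, here and in all pairs of means), Tek of 2.61 and 3.06 and Pecam1 of 1.03 and 0.978. Of the T cell markers Cd3e was under 0.2 in every array and Cd3g had means of 1.35 and 1.48, and Alb of liver was under 0.2 in every array. The summed intensity of 3 adipocyte markers was 95.2 in pioglitazone mouse 1 and between 8.01 and 50.5 in the other mice, and that of 4 luteal markers ran from 20.0 to 80.3 with vehicle and from 9.51 to 52.3 with pioglitazone. In a whole ovary, fewer cells of a type and less RNA per cell cannot be told apart.

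Of the 63 genes, 46 were at 0.2 or more in every array with a value, 11 in some arrays and 6 in none. The 6 were Foxh1, Foxp4, Foxq1, Sox2, Sox8 and Sox21. All arrays with a value were at the limit or above for 73.0% of these genes and for 81.0% of all named genes. A gene was tested where the mean of at least 1 group reached 0.2, which left 53. Foxd1, Foxe3, Foxf1 and Sox3 reached 0.2 in 1 or 2 arrays and were not tested. Foxk1, Foxl1 and Sox4 entered through the vehicle group alone and Sox9 through the pioglitazone group alone, so counts over the tested genes are a description and not support.

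Pioglitazone was compared with vehicle by limma over all 30634 tested probes. In these ovaries 7 of the 53 genes were past an unadjusted p of 0.05, 6 lower (Foxi1, Foxa1, Foxa3, Foxj2, Foxn2 and Sox14) and 1 higher (Sox9). This is 13.2% of the genes, and 5.5% of all probes tested were called, with 3.53% lower and 1.97% higher. Among all named genes by their brightest probe the share called was 4.85%, with 3.27% lower and 1.57% higher. After Benjamini-Hochberg adjustment in limma 0 of the 53 genes and 0 of the 30634 probes were below 0.05, and the lowest adjusted p of the genes was 0.837. The labels name separate mice, so that these p-values measure the spread between mice. The 4 values of each group did not overlap in 8 genes, all lower with pioglitazone, namely the 6 just named and Foxd4 and Foxp3. Such separation was seen in 4.59% of all probes (3.13% downward, 1.46% upward) and in 4.18% of all named genes (3.04% downward, 1.14% upward). Log2 fold changes were below 0 in 37 of the 53 genes (69.8%) and in 55.7% of all probes, with medians of -0.05 and -0.03. The share of the genes below 0 fell to 58.5% with quantile and to 57.7% with cyclic loess normalization. With 1 mouse left out it ran from 58.5% to 73.6%.

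The calls depended on scaling and on single mice. With cyclic loess normalization 3 of 52 genes were called (Foxa3, Foxi1 and Sox14, all lower), and 5.05% of all probes, of which 718 were higher and 818 lower against 603 and 1082 with median scaling. With quantile normalization 5 of 53 were called (4 lower, 1 higher), and 4.86% of all probes (690 higher, 800 lower). Without vehicle mouse 1 or without pioglitazone mouse 3 only Foxi1 was called, against 3.84% and 4.13% of all probes. The count was 3 without vehicle mouse 3, pioglitazone mouse 2 or pioglitazone mouse 4, against 4.52%, 4.8% and 2.41% of all probes. Without pioglitazone mouse 1, which stood apart in adipocyte markers, 7 genes were called, with Sox1 and Sox30 (lower) in place of Foxa3 and Foxj2, and the share of all probes called rose to 7.99%. Of the 8 genes whose groups did not overlap, Foxa1, Foxd4, Foxi1 and Foxn2 stayed apart with quantile and with cyclic loess normalization, and Foxa3, Foxj2, Foxp3 and Sox14 overlapped with both.

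**Figure D1:**
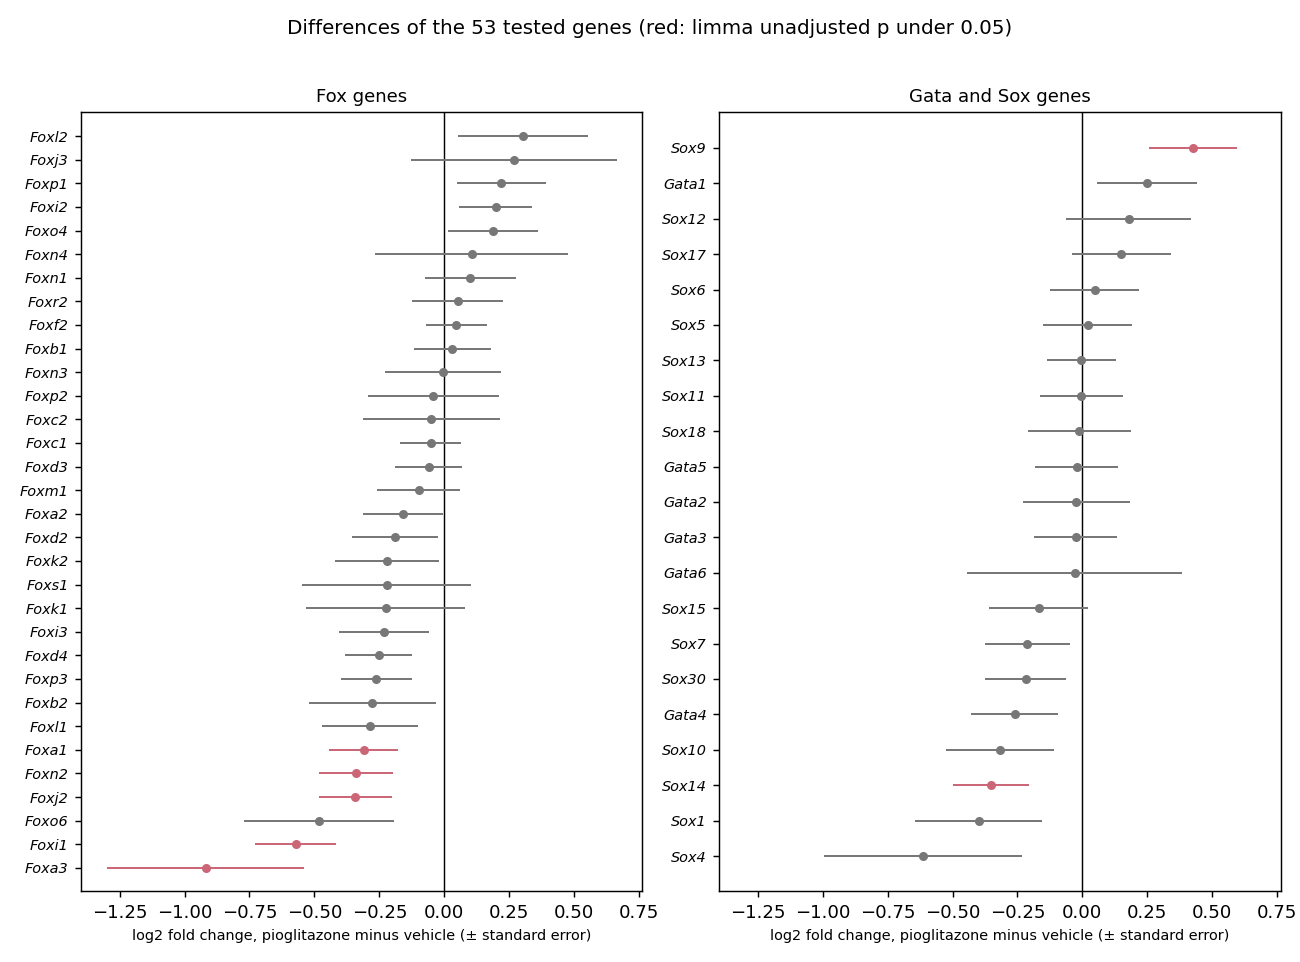
Log2 fold change (pioglitazone minus vehicle, x axis) of the 53 tested genes, Fox genes on the left and Gata and Sox genes on the right. Points are limma estimates, bars are standard errors and red marks an unadjusted p under 0.05. Of the 7 red points, Foxa3 is farthest to the left at -0.92 and Sox9 is the 1 to the right of 0, at 0.43.

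Foxi1 encodes a factor of ion-transporting cells in kidney and inner ear, where it controls proton pump genes. Its values were 3.71, 3.63, 4.26 and 2.98 in vehicle mice 1 to 4, and 2.36, 2.70, 2.58 and 2.13 in pioglitazone mice 1 to 4. Every mouse given pioglitazone was below every mouse given vehicle. The means were 3.65 ± 0.53 and 2.44 ± 0.25 (SD, n = 4 each), and their ratio was 0.670. On the log2 scale the difference was -0.57 with a standard error of 0.16 (adjusted p = 0.837 in limma). The 2-sided exact permutation p was 0.0286, the smallest that 4 against 4 mice allow. Any gene whose 4 against 4 values do not overlap has this p, so here and below it only restates the separation. Foxi1 was past an unadjusted p of 0.05 in every alternative that was run, with log2 fold changes from -0.67 to -0.43. The 2 floors left the log2 fold change of Foxi1 unchanged, and Foxi1 has no second probe, so these alternatives could not move it. Its relatives were not called: Foxi2 had means of 0.512 and 0.588, and Foxi3 of 1.46 and 1.22, and each overlapped between the groups.

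FOXA1, FOXA2 and FOXA3 open chromatin for other factors in liver, gut and further epithelia. All 3 genes had negative log2 fold changes. Foxa1 was at 3.64, 3.74, 3.16 and 3.06 in vehicle mice 1 to 4 and at 2.91, 2.75, 2.74 and 2.54 in pioglitazone mice 1 to 4. The groups of Foxa1 were apart by a small gap, from 2.91 to 3.06, and the ratio of means was 0.804. Foxa3 was at 1.03, 0.335, 0.307 and 0.364 with vehicle and at 0.221, 0.273, 0.166 and 0.303 with pioglitazone. Its groups did not overlap either, but vehicle mouse 1 stood far above the other 7 mice, and the highest pioglitazone value was just under the lowest vehicle value. On the log2 scale Foxa1 differed by -0.31 (standard error 0.13) and Foxa3 by -0.92 (0.38), both at an exact permutation p of 0.0286. Without vehicle mouse 1 that of Foxa3 was -0.51 and its call was lost, as it was without pioglitazone mouse 1 (-0.89) or 3 (-0.75), and with the methods' t-test, unequal variances or linear values. It was called in 17 of 23 alternatives, and its groups overlapped after quantile or cyclic loess normalization. Foxa1 lost its call without vehicle mouse 1 or 2 or pioglitazone mouse 2, 3 or 4. It also lost it with quantile or cyclic loess normalization, and with no filter on dim probes. It was called in 16 of 24 alternatives. Foxa2, with means of 0.622 and 0.552, was not called (log2 fold change -0.16).

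Liver and gut genes that FOXA proteins control were read from a list of 16, of which 11 were tested. None was called, and the median log2 fold change was -0.06 (-0.03 over all probes). Ttr (transthyretin) had means of 0.373 and 0.338, and Alb (albumin) and the liver factor Hnf4a were under 0.2 in every array. The summed intensity of 5 markers of oviduct and surface epithelium ran from 18.0 to 28.8 with vehicle and from 18.2 to 28.4 with pioglitazone. Most of this sum was Krt7 (means of 21.2 and 18.2, log2 fold change -0.22, not called). Upk3b of this list, a surface mesothelial gene, was called lower (0.345 and 0.219, log2 fold change -0.66, adjusted p = 0.837 in limma). Its pioglitazone values were 0.202 to 0.255, close to the limit of 0.2. Ovgp1 (0.20) and Krt8 (0.14) had positive log2 fold changes without a call, and Pax8 was not tested. The part of Upk3b-expressing cells in the Foxa1 values was not tested.

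The sequences before the transcription starts of Foxi1 and Foxa3, the genes with the most stable and the largest downward difference, are shown with the one of Foxl2, whose protein defines granulosa cells. Each holds the 250 bases upstream of the RefSeq start in the mouse build GRCm38.p6, 5′ to 3′ on the strand of the gene, with matches to the motifs named below in capitals. The regions are chr11:34208090-34208339 (minus strand), chr7:19023540-19023789 (minus strand) and chr9:98955357-98955606 (plus strand).
Foxi1: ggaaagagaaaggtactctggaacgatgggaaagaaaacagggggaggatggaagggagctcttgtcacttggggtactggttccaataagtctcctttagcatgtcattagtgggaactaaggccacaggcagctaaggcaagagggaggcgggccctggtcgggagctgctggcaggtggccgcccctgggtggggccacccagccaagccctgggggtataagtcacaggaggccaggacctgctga
Foxa3: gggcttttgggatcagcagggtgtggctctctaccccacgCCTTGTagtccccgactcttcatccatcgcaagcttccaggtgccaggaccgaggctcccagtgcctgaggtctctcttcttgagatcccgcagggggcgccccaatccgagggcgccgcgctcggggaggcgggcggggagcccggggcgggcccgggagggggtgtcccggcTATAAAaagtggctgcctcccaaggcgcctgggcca
Foxl2: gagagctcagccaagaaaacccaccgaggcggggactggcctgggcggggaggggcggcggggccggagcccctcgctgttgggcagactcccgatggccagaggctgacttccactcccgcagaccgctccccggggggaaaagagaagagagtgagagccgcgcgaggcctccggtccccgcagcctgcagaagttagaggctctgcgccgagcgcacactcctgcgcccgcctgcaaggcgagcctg

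The capitals of Foxa3 are a SOX-type match (ACAANG, here on the opposite strand) and a TATA box (TATAAA). A window of this kind was used for 42 of the 63 genes, 53 windows in all, and both strands were searched. Windows on chromosome 18, where Gata6 lies, were left out here and from the windows of all genes. A FOX motif (TGTTTAC) was found in 2 of the 53, at Foxa1 and Sox12, and in 3.17% of 32851 windows of all genes. GATA motifs occurred as AGATAA in 3 (9.99% of all windows) and as TGATAA in 2 (7.94%), the SOX motif in 23 (36.3%) and TATAAA in 4 (12.4%). The repeat to which PPAR and its partner RXR bind, 2 copies of AGGTCA with 1 base between them, was found in none of the 53 windows and in 11 of all windows (0.0335%). The median share of G and C was 62.8% in the 53 windows and 52.4% in all. Windows of alternative starts of a gene can overlap, and these matches describe letters only.

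Foxj2, Foxn2 and Sox14 were the other genes called lower. Foxj2, a widely expressed forkhead gene, was at 2.46, 1.90, 2.30 and 2.01 in vehicle mice 1 to 4 and at 1.61, 1.72, 1.60 and 1.89 in pioglitazone mice 1 to 4. The groups almost touched, at 1.90 and 1.89, with a log2 fold change of -0.34 (standard error 0.14). A fit blocked by replicate number treated mice of the same number as pairs, which the labels do not state. In this fit 6 of the 7 genes were called and Foxj2 was not, at the same log2 fold change of -0.34, while 8.6% of all probes were called. Sox14, a SOXB2 gene known from the developing nervous system, was at 2.90, 2.13, 2.76 and 2.47 with vehicle and at 2.10, 2.11, 1.96 and 1.83 with pioglitazone. Vehicle mouse 2 lay next to pioglitazone mice 1 and 2, and the log2 fold change was -0.35 (0.15).

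Foxn2 is a widely expressed forkhead gene with 3 probes. The brightest was at 6.08, 5.04, 5.44 and 5.37 with vehicle and at 5.00, 4.51, 3.81 and 4.05 with pioglitazone, so that the groups were just apart, and differed by -0.34 on the log2 scale (standard error 0.14). The second probe had overlapping groups with means of 1.34 and 1.23 (log2 fold change -0.14), and the other of 0.601 and 0.476 (-0.32), and neither was called. In its relative Foxn3 the probes differed too: the brightest had means of 18.0 and 17.8, and a dimmer one had means of 1.55 and 1.14 with a call downward (log2 fold change -0.44, groups overlapping). Leaving out 1 mouse ended the call of Foxn2 in 6 of 8 cases, as it did that of Sox14, and both kept it only without vehicle mouse 2 or pioglitazone mouse 1. Foxj2 lost it in 5 of 8 cases. Foxn2 also lost its call with quantile and with cyclic loess normalization, and Foxj2 with cyclic loess normalization.

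Foxd4 and Foxp3 had groups that did not overlap without passing limma's threshold. Foxd4, a forkhead gene of early development, was at 5.32, 4.69, 5.91 and 4.83 with vehicle and at 4.41, 4.39, 4.33 and 4.22 with pioglitazone, so that the pioglitazone mice were tightly grouped (SD 0.088) below a wider vehicle group (SD 0.552). Foxp3 defines regulatory T cells. Its values were 3.04, 2.48, 3.16 and 2.63 with vehicle and 2.41, 2.41, 2.42 and 2.16 with pioglitazone. On the log2 scale Foxd4 differed by -0.25 (standard error 0.13) and Foxp3 by -0.26 (0.14), with adjusted p = 0.837 in limma for both. The exact permutation p of 0.0286 for each follows from the separation by which they were picked and is no further support. With the methods' t-test, with unequal variances and with limma on linear values both were called. The groups of Foxp3 overlapped after quantile or cyclic loess normalization, and those of Foxd4 did not.

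Beside Foxp3, 3 of 4 lymphocyte markers were named on the array. Their summed intensity was 6.77 to 8.20 with vehicle and 5.74 to 6.69 with pioglitazone, without overlap. Cd79a of B cells was called lower (means of 6.10 and 4.54, log2 fold change -0.43, adjusted p = 0.837 in limma). Of the T cell genes, Cd3g had means of 1.35 and 1.48 (log2 fold change 0.13, not called) and Cd3e was under 0.2 in every array, so the lower sum came with Cd79a and not with the T cell genes. The part of these cells in the Foxp3 values was not tested.

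**Figure D2:**
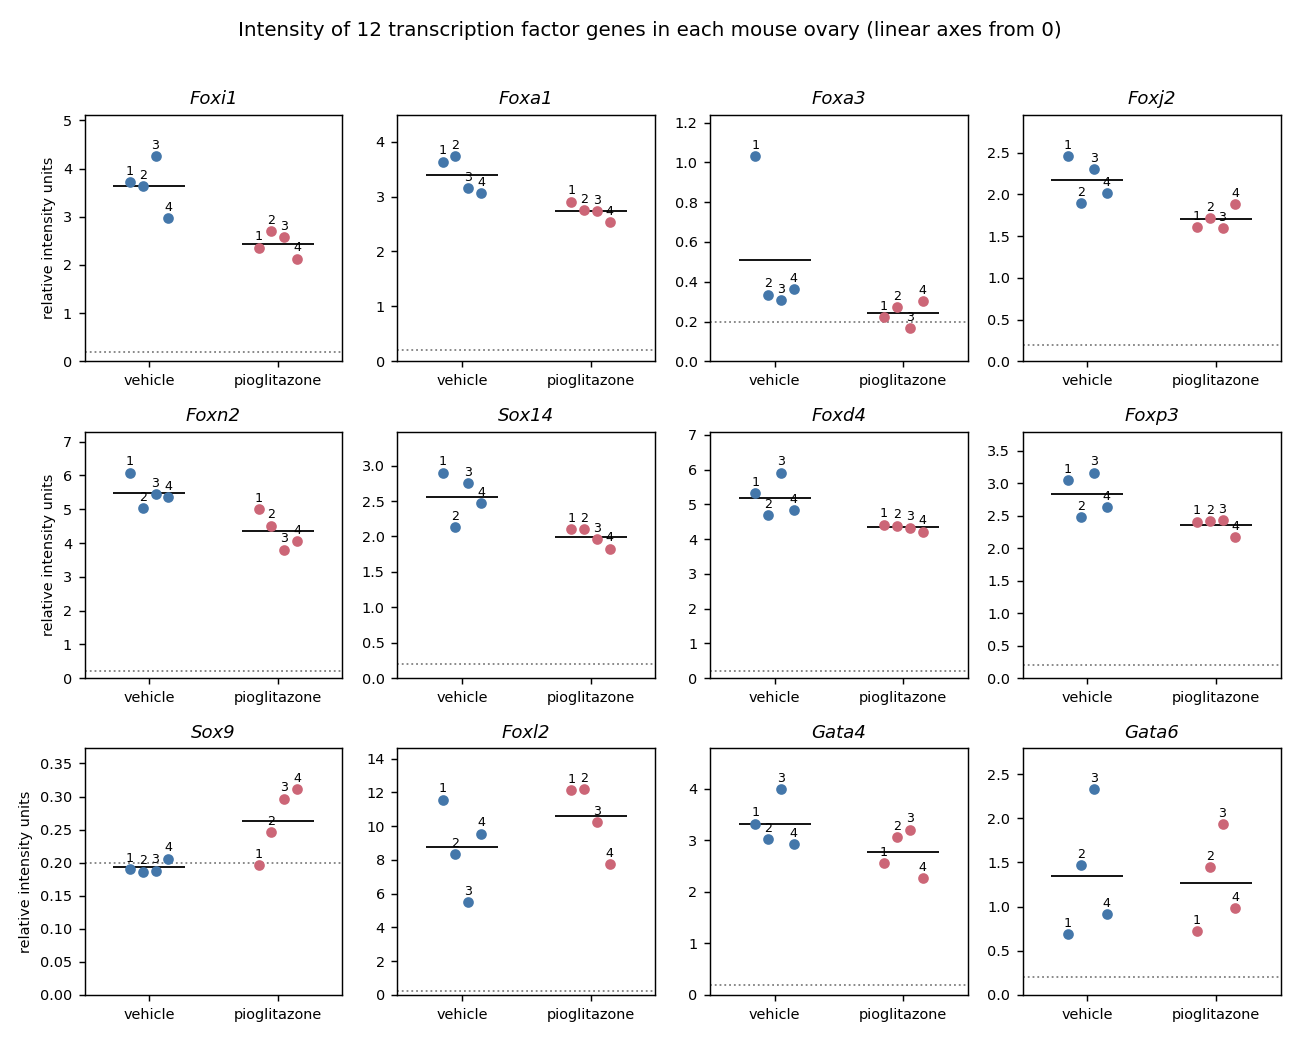
Relative intensity units (y axes, linear and starting at 0) of 12 genes in each mouse, with vehicle in blue and pioglitazone in red. Each point carries its mouse number, a bar marks the mean of a group and dots mark the limit of 0.2. The 8 genes from Foxi1 to Foxp3 have all pioglitazone points below all vehicle points, and Foxl2, Gata4 and Gata6 overlap.

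Among the SOXE genes, Sox9 was at 0.190, 0.186, 0.188 and 0.206 in vehicle mice 1 to 4 and at 0.197, 0.246, 0.297 and 0.311 in pioglitazone mice 1 to 4. Pioglitazone mouse 1 lay inside the vehicle range and the other 3 above it, so the groups overlapped (exact permutation p = 0.0571). Of the 8 values 4 were under 0.2, among them 3 of the 4 with vehicle, and the log2 fold change was 0.43 (standard error 0.17, adjusted p = 0.837 in limma). Sox9 was tested through its pioglitazone mean alone, so its difference is largely one against values below the limit. The call was lost with cyclic loess normalization, an intensity trend, unequal variances or linear values, and in 5 of 8 cases with 1 mouse left out. Sox8, which acts beside Sox9 in the testis, was under 0.2 in every array, and Sox10, a gene of neural crest and Schwann cells, had means of 1.08 and 0.880 without a call.

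Genes of the testis pathway around SOX9 were read from a list of 12, of which 8 were tested and 0 were called, with a median log2 fold change of -0.03. Dmrt1, which maintains the male state of the gonad, was under 0.2 in every array. Ptgds, a prostaglandin D synthase that SOX9 activates in the testis, was at 4.82, 1.71, 3.88 and 19.2 with vehicle, where mouse 4 stood far above the others, and between 1.74 and 2.93 with pioglitazone.

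Foxl2 had 2 probes. On the brighter one it was at 11.6, 8.35, 5.48 and 9.56 in vehicle mice 1 to 4 and at 12.2, 12.2, 10.2 and 7.74 in pioglitazone mice 1 to 4. The groups overlapped, with the lowest value in vehicle mouse 3, and the means were 8.74 ± 2.55 and 10.6 ± 2.1 (SD, n = 4 each). The log2 fold change was 0.30 (standard error 0.25, adjusted p = 0.876 in limma), and 0.10 without vehicle mouse 3. The second Foxl2 probe had means of 0.478 and 0.500 (log2 fold change 0.06).

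Gata4, which acts in granulosa and theca cells, was at 3.33, 3.02, 3.99 and 2.93 with vehicle and at 2.56, 3.06, 3.21 and 2.26 with pioglitazone. The groups overlapped between 2.93 and 3.21, and the log2 fold change was -0.26 (standard error 0.17, adjusted p = 0.857 in limma). Gata6 was at 0.690, 1.47, 2.33 and 0.916 with vehicle and at 0.723, 1.45, 1.94 and 0.980 with pioglitazone. In both groups its order was mice 1, 4, 2 and 3 from low to high, and the groups covered nearly the same range (log2 fold change -0.03, standard error 0.41). Luteal markers summed to 29.5, 80.3, 61.2 and 20.0 in vehicle mice 1 to 4 and to 9.51, 32.6, 52.3 and 12.04 in pioglitazone mice 1 to 4, so that mice 2 and 3 were the higher ones in both groups here too. The part of luteal tissue in the Gata6 values was not tested. A second Gata6 probe did not follow this order, with its lowest value in vehicle mouse 2 (0.83) and its highest in pioglitazone mouse 4 (1.59), and means of 1.13 and 1.29 (log2 fold change 0.20).

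Of 22 granulosa and steroid genes linked to FOXL2, GATA4 and GATA6, 19 were tested, with a median log2 fold change of 0.15. Log2 fold changes were positive in 12 of the 19 and negative in 7. Of these, 1 was called higher and 0 lower, against 1.97% and 3.53% of all probes. The called gene was Fst, which encodes follistatin and is activated by FOXL2 (means of 2.90 and 4.72, log2 fold change 0.66). Its groups overlapped, with an exact permutation p of 0.114. The 5 granulosa markers, Foxl2 among them, all had positive log2 fold changes without a call (median 0.30), with means of 31.3 and 43.5 for Inha, an inhibin subunit, and of 8.10 and 11.6 for the nuclear receptor gene Nr5a2. The steroid genes Star, which brings cholesterol into mitochondria (27.5 and 16.8, log2 fold change -0.94, standard error 0.62), Cyp11a1, which makes the first steroid (52.998 and 33.9, log2 fold change -0.83, standard error 0.50), and Hsd3b1 (220.5 and 175.7, log2 fold change -0.37) had lower means and overlapping groups, and none was called. Amh, the gene of anti-Müllerian hormone, had means of 1.14 and 1.24, and Nr5a1, which encodes the steroidogenic factor SF-1, of 10.3 and 8.66. Of 18 cofactors and partners of the 3 families, all tested with a median of -0.13, 2 were called lower and 0 higher, against 3.53% and 1.97% of all probes. They were Ep300, an acetyltransferase that GATA proteins recruit (0.500 and 0.357, log2 fold change -0.49, groups apart), and Tle3, a corepressor that binds forkhead proteins (0.254 and 0.143, groups overlapping). Tle3 was tested through its vehicle mean alone and was under 0.2 in 3 of 4 pioglitazone mice, so its difference is one against values below the limit. Zfpm2, which encodes the GATA4 cofactor FOG2, had means of 1.06 and 1.28 and was not called.

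The other 4 Gata genes, Gata1, Gata2, Gata3 and Gata5, were not called. Gata1, the factor of red cell precursors, had means of 1.03 and 1.24, a log2 fold change of 0.25. Hematopoietic Gata2 (0.396 and 0.380, with the spot of vehicle mouse 2 missing, so that 7 arrays were fitted), Gata3 of T cells (1.05 and 1.04) and Gata5 of endoderm and heart (6.77 and 6.68) had log2 fold changes from -0.03 to -0.02.

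The endothelial genes Sox7, Sox17 and Sox18 were at 0.2 or more in every array and 0 of 3 were called. Sox7 had means of 1.93 and 1.67 (log2 fold change -0.21), Sox17 of 1.70 and 1.86 (0.15), and a second Sox17 probe of 0.295 and 0.325 (0.15). Sox18, which acts in lymph vessels, was at 6.69, 4.76, 4.39 and 5.78 with vehicle and at 7.19, 4.58, 4.84 and 4.90 with pioglitazone, with mouse 1 the highest in both groups. Of 16 blood vessel genes beside them 13 were tested, with a median of -0.09. Of these, 0 were called higher and 1 lower, against 1.97% and 3.53% of all probes. This was Emcn, the endothelial surface protein endomucin, with means of 14.1 and 10.4 (log2 fold change -0.45, groups overlapping).

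Of the SOXC genes, Sox11 was at means of 1.67 and 1.66 and Sox12 at 4.16 and 4.64. Sox4 was under 0.2 in all 4 pioglitazone mice and in 2 of 4 vehicle mice and was not called. Its vehicle mean was 1.02 times the limit but holds values under the limit, so no fold can be bounded. Foxm1, which switches on genes of cell division, had means of 1.19 and 1.12 (log2 fold change -0.10). Its cell division targets, 13 tested of 14, had 0 calls, 10 positive log2 fold changes and a median of 0.12. Mki67, a marker of cycling cells, had means of 37.0 and 43.9. Oocyte factors and oocyte genes, 14 tested of 15, had 0 calls and a median of -0.05, and Sox3, which acts in the brain and in germ cells, was not tested.

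Over the 19 genes fixed for a known role in ovary, gonad or vessels, 16 were tested and 1 (Sox9) was called, which is 6.25% against 5.5% of all probes. Sox9 was tested through its pioglitazone mean alone and was under 0.2 in 3 of 4 vehicle mice, so this share is a description and not support. Log2 fold changes ran from -0.22 (Foxk2) to 0.25 (Gata1), leaving out Sox9 (0.43) and Sox4, the latter under 0.2 in every pioglitazone mouse. The vascular and mesenchymal forkhead genes Foxc1 (0.976 and 0.941) and Foxc2 (1.46 and 1.43) had log2 fold changes of -0.05 each. Foxp1, a forkhead repressor, was at 7.82, 7.89, 7.34 and 7.32 with vehicle and at 10.995, 8.22, 6.74 and 10.01 with pioglitazone, so that 3 of 4 pioglitazone mice were above all vehicle mice and 1 was below them. Its log2 fold change was 0.22 (standard error 0.17). Foxo6, a forkhead gene best known from the brain, was at 5.66 in vehicle mouse 3 and between 1.94 and 3.27 in the other mice, and was not called.

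Mice also differed across these genes as a whole. The median deviation of a mouse from each gene's mean over all arrays was highest in vehicle mouse 1 (0.22 on the log2 scale) and lowest in pioglitazone mouse 3 (-0.15), where the same medians over all probes were 0.11 and -0.06. Of the 53 genes, 15 had their lowest value in pioglitazone mouse 3 and 15 in pioglitazone mouse 4, while 16 had their highest in vehicle mouse 1, 14 in vehicle mouse 3 and 12 in pioglitazone mouse 1. The 4 pairs of these genes that are neighbours on a chromosome were Foxq1 and Foxf2, Foxf2 and Foxc1, Foxd2 and Foxe3, and Foxc2 and Foxl1, and none of those tested was called.

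**Figure D3:**
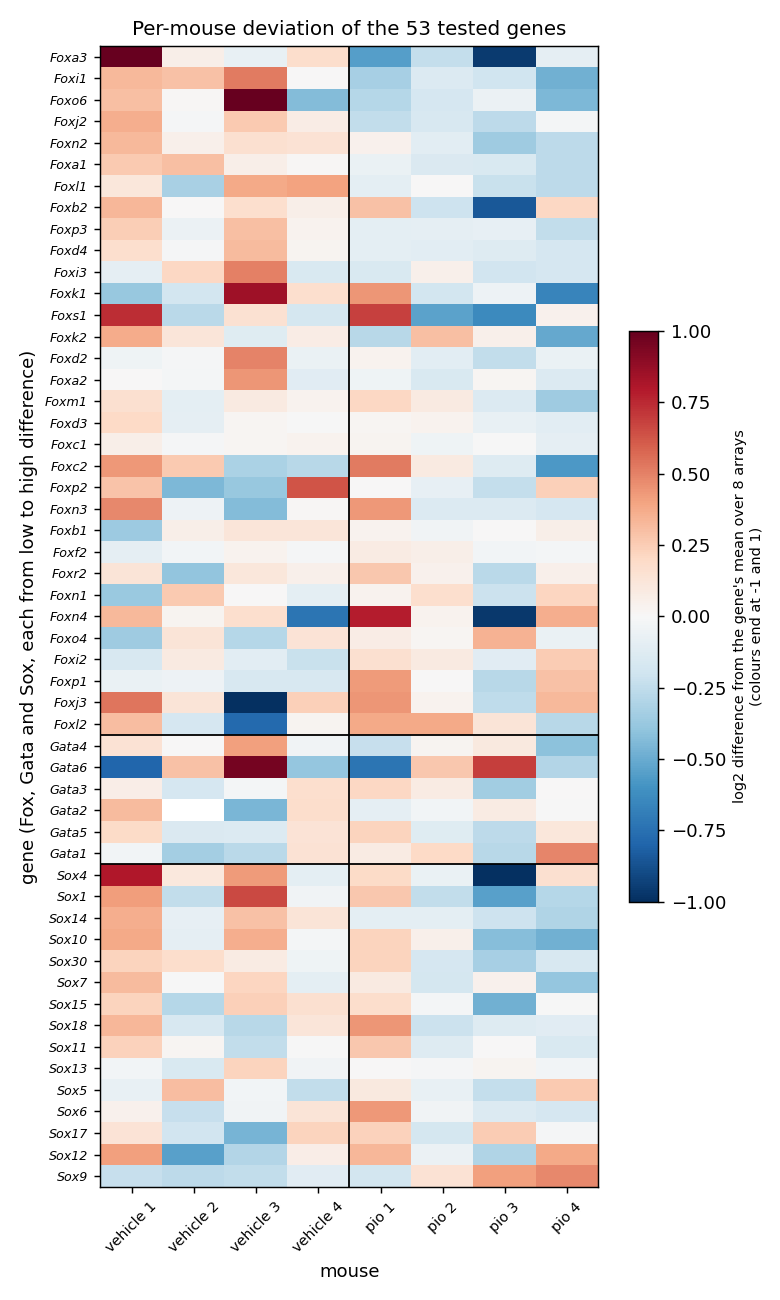
Log2 difference of each mouse (columns) from the gene's mean over 8 arrays, for the 53 tested genes (rows, grouped as Fox, Gata and Sox); colours end at -1 and 1, and the missing spot of Gata2 in vehicle mouse 2 is white. The rows of Foxi1, Foxj2, Foxn2 and Foxa1 are mostly red with vehicle and mostly blue with pioglitazone, and Gata6 is blue in mice 1 and 4 and red in mice 2 and 3 of both groups.

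**Figure D4:**
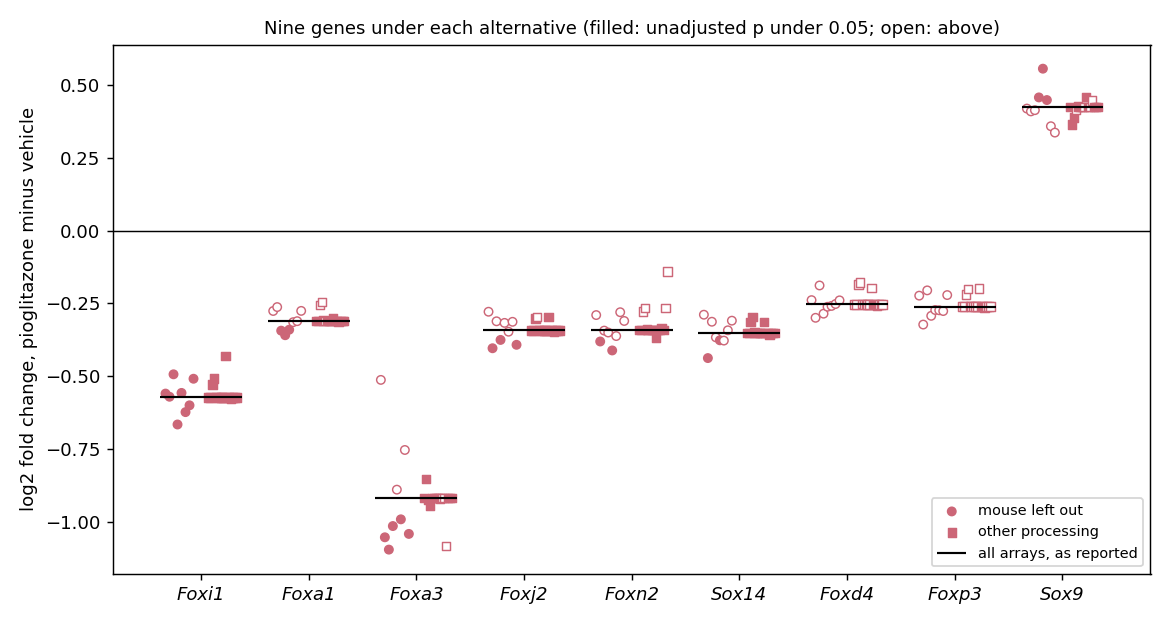
Log2 fold change (y axis) of the 8 genes whose groups did not overlap and of Sox9, with each mouse left out (circles) and under the other processing alternatives (squares). The black line is the value with all arrays, and filled symbols have an unadjusted p under 0.05. Foxi1 is filled throughout, while Foxa3 moves from -0.92 to -0.51 without vehicle mouse 1.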

How the data were processed

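Ovarian RNA of 8 mice was measured on CodeLink whole-genome arrays. The authors subtracted background with the CodeLink program and scaled every slide to its median, and the deposited values are linear intensities, 1 per probe and mouse. The methods also name a per-gene median scaling, of which the values showed no sign. A code of -9999 was read as missing (47 to 211 spots of 36227 per array). Probes were named from the platform annotation, which gives 1 gene to 21615 probes, several to 681 and none to 13931. Probe sequences were not at hand, so binding of transcripts of related genes to a probe could not be checked. The number of arrays limits the precision.

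Arrays were scaled again to a median of 1, a floor of 0.05 was set and log2 was taken. The model (lmFit and eBayes of limma 3.58.1, under R 4.3.3) ran on the 30634 probes that had 3 or more values in both groups and reached a mean of 0.2 in either, with Benjamini-Hochberg adjustment over all of them. "Called" means an unadjusted p under 0.05. Ratios are of arithmetic means of linear values. A group under 0.2 in all its mice enters a ratio as 0.2, which makes the ratio a bound only where no value of the other group is under 0.2. Exact permutation tests were 2-sided over the 70 assignments of mice to groups. The fit was tested on simulated data. Gene members and gene lists were chosen with earlier results of these data known. Values of every mouse are given for Foxa3, Foxl2, Gata4 and Gata6 and for each gene called or with groups that did not overlap, 12 in all, and the 19 genes fixed for a role are given by ranges. Foxp1, Sox18, Foxo6, Foxn3, relatives of called genes and second probes were singled out after their values were seen.

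Whether the replicate number pairs the mice was checked by correlating arrays after removal of the group means. Same-numbered arrays correlated at 0.515, 0.181, 0.274 and 0.232, all over 0.1, although vehicle mouse 2 correlated best with pioglitazone mouse 3 (0.369). The pairing rests on these values and not on the labels. The comparison without the block is reported.

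The alternatives were 2 floors, quantile, cyclic loess or no scaling, 3 filters on dim probes, an intensity trend, array weights, the methods' t-test, unequal variances, linear values, the replicate block, each mouse left out, and other probes of a gene. Promoter windows are from RefSeq (GRCm38.p6), without those on chromosome 18.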

Additional observations from a re-analysis of the deposited data

Results flagged for a closer look

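In 8 of 101 groups of 4 mice with a mean of at least 0.2, the highest or lowest mouse stood apart from the others of its group by Dixon's ratio at 95%. Chance gives about 5% of groups. With vehicle, Foxa3 was at 1.03 in mouse 1 (next 0.364), Foxb1 at 0.636 in mouse 1 (next 0.853), Foxd2 at 1.06 in mouse 3 (next 0.743) and Foxr2 at 0.528 in mouse 2 (next 0.718). With pioglitazone, Foxi3 was at 1.37 in mouse 2 (next 1.19), Foxn3 at 23.7 in mouse 1 (next 15.9), Sox18 at 7.19 in mouse 1 (next 4.90) and Foxp3 at 2.16 in mouse 4 (next 2.41).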

How the results depend on the processing

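Foxi1 kept its direction and its call in all alternatives run, although the floors and the use of other probes could not move its log2 fold change. The 7 calls became 3 with cyclic loess normalization and ran from 1 (without vehicle mouse 1, or without pioglitazone mouse 3) to 7 with 1 mouse left out. The number of genes whose groups did not overlap, 8, was 4 with quantile and 5 with cyclic loess normalization (Foxa1, Foxd4, Foxi1 and Foxn2 in both, and Foxd2, not among the 8, in the latter). It was 8 to 10 with 1 mouse left out. Removing a mouse cannot bring separate groups to overlap, so this last range does not measure stability. The median log2 fold change of the tested genes ran from -0.16 (without pioglitazone mouse 1) to -0.041 with 1 mouse left out. With the replicate block, which treats mice of the same number as pairs, 6 genes were called and the median was -0.05. Foxj2 lost its call and no other call changed. Over all probes the count was 1685, 2635 with the block and 737 without pioglitazone mouse 4. The methods' t-test called 8 genes, with Foxd4 and Foxp3 added and Foxa3 lost, and 2130 probes at an unadjusted p under 0.05, and 0 probes after Benjamini-Hochberg adjustment. The sign of an uncalled log2 fold change turned for Gata6 (0.40 with array weights, 0.085 with the mean over its probes, 0.20 with the second probe), Sox11 (0.029 with quantile and 0.033 with cyclic loess normalization), Sox18 (0.055 and 0.064) and Sox17 (-0.0085 with array weights). With 1 mouse left out the signs turned for Foxc2 (-0.23 to 0.14), Foxm1 (-0.18 to 0.0043), Gata2 (-0.053 to 0.0037), Gata3 (-0.10 to 0.086), Gata6 (-0.30 to 0.28), Sox11 (-0.097 to 0.072) and Sox18 (-0.16 to 0.10). The cause was not tested. Levels near 0.2, as in Sox9, Foxa3 and Sox4, are little above the limit of sensitivity.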

Other observations

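Genes that FOXI1 is known to control in ion-transporting cells were looked up after the Foxi1 values were seen. Of 7, all tested, 1 was called at unadjusted p under 0.05, against 5.5% of all probes. This was Ascl3, a helix-loop-helix factor of such cells, at 2.79, 2.79, 3.54 and 2.85 with vehicle and 2.43, 2.70, 2.35 and 1.82 with pioglitazone, without overlap (log2 fold change -0.37, exact permutation p = 0.0286, adjusted p = 0.837 in limma). The proton pump subunit genes Atp6v1b1 (means of 3.13 and 2.61) and Atp6v0a4 (2.09 and 1.82) and the anion exchanger gene Slc4a9 (0.577 and 0.441) had lower means with pioglitazone, while Slc26a4 (pendrin) had a higher mean (0.561 and 0.708) and Slc4a1 had means of 0.232 and 0.238. The water channel gene Aqp5 was at 7.90 in vehicle mouse 1, at 2.61 to 3.21 in the other vehicle mice and at 2.40 to 3.78 with pioglitazone. None of these 6 was called.

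Transcripts next to genes of the 3 families were measured too. Foxl2os, which lies beside Foxl2, had means of 1.08 and 1.11 (log2 fold change 0.03). Foxo6os had means of 0.359 and 0.461 and Sox6os of 0.263 and 0.433, neither called, and Sox1ot and Sox5os3 were under 0.2 in every array. A further probe that the annotation assigns to Ace, Ccdc22 and Foxp3 together had means of 0.954 and 0.689 and was not called.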
